A study of Mus musculus with 8 samples.

Results

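The mitochondrial carriers of the SLC25 family, together with the mitochondrial pyruvate carrier subunits Mpc1 and Mpc2, were examined for chromatin accessibility in forebrain microglia lacking Nlrp3 and in wild-type microglia. Members were all peaks whose assigned gene was named Slc25a followed by a number, or was Ucp2, Mpc1 or Mpc2. The deposited peak list held 67822 peaks assigned to 16095 genes, of which 174 peaks belonged to 47 carrier genes. The rule itself uses gene names and no accessibility value. Microglia, the resident macrophages of the brain, were isolated as CD11b+ cells on magnetic columns after removal of myelin, and open chromatin was tagged with a transposase and sequenced (ATAC-seq). The knockout group was 4 libraries from Cias1-knockout mice, named Nlrp3-/- and credited to Millennium Pharmaceuticals, and the wild-type group was 4 libraries from C57BL/6N mice. The labels give neither age, sex nor the strain background of the knockout. Nor do they say that each library came from its own animal, so every p-value reflects the spread among these libraries, part of which may be technical. The study's title links NLRP3 to glutaminolysis, the use of glutamine as a mitochondrial fuel, and the comparison asks whether accessibility at carrier genes differed with genotype.

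SLC25 carriers are nuclear-encoded proteins of the mitochondrial inner membrane that exchange nucleotides, phosphate, amino acids, carboxylates, cofactors and metals between the cytosol and the matrix. Pyruvate enters through a separate carrier built of Mpc1 and Mpc2. Glutamine carbon reaches and leaves the matrix partly through carriers for glutamate, aspartate and oxoglutarate, and macrophages redirect several of these routes when they are activated.

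The upstream sequences below belong to the carriers on which the results turn. Slc25a48 and Slc25a28 had the smallest p in each direction, Mpc2 was among the most accessible promoters, and Ucp2, chosen after its values were seen, had the lowest adjusted p among single carrier peaks. Each run is the 250 bases before the RefSeq start on GRCm38 (mm10), 5′ to 3′ on the gene's strand, taken from RefSeq. Capitals mark the SP/KLF box GGGCGG or its reverse complement CCGCCC, and the CCAAT box in the forward or reverse orientation. They lie at chr13:56438105-56438354 (plus strand), chr19:43674882-43675131 (minus strand), chr1:165461010-165461259 (plus strand) and chr7:100493108-100493357 (plus strand).
Slc25a48: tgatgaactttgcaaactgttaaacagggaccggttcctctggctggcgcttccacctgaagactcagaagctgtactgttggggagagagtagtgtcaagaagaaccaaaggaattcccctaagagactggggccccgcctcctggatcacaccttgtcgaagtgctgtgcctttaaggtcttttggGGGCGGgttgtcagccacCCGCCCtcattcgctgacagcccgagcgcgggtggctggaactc
Slc25a28: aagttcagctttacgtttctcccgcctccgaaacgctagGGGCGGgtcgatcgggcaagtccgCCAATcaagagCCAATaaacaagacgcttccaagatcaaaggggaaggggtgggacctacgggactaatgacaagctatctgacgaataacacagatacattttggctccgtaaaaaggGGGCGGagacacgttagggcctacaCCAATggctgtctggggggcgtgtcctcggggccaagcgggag
Mpc2: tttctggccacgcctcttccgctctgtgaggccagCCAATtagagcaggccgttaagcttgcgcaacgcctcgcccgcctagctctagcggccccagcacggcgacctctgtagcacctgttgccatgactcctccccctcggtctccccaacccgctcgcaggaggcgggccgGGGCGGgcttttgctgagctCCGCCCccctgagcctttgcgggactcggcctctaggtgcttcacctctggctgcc
Ucp2: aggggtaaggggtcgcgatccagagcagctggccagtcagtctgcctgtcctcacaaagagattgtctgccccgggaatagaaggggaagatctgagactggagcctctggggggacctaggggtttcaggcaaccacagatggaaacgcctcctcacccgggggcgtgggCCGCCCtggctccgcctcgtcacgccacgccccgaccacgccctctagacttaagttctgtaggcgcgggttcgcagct

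Slc25a28 carried 2 SP/KLF boxes and 3 CCAAT boxes in this stretch, Mpc2 carried 2 and 1, Slc25a48 carried 2 and 0, and Ucp2 carried 1 and 0. RefSeq promoter entries matched 38 of the 47 carriers, and 29 of them had a window of 300 bases (250 before to 50 after the start) at a promoter peak. GGGCGG was found on either strand in 27 of these 29 windows (93.1%), against 69.6% of 7790 such windows over all genes. CCAAT was found in 16 (55.2%, against 40.5%), the E-box CACGTG in 5 (17.2%, against 11.0%) and the CREB motif TGACGTCA in 2 (6.90%, against 3.62%). The ETS motif CCGGAAGT was found in 1 window (3.45%, against 9.19%) and the YY1 motif AAGATGGCG in 1 (3.45%, against 3.52%). The NRF1 motif GCATGCGC (5.91% of all windows), the PU.1 motif GAGGAAGT (3.62%) and the estrogen-related receptor motif TCAAGGTCA (0.167%) were found in 0 carrier windows. The median GC content was 64.3% in carrier windows and 62.0% in all windows. These are letter matches within a fixed window, and no site use was measured.

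The libraries held 11325865 to 14301529 tags in knockout and 11872703 to 15521580 tags in wild type. The share of tags inside peaks was 6.68%, 4.96%, 20.9% and 26.2% in knockout replicates 1 to 4, against 17.5%, 9.79%, 12.8% and 14.4% in wild-type replicates 1 to 4, so all 4 knockout libraries lay outside the wild-type range, replicates 1 and 2 below it and replicates 3 and 4 above it. The median carrier gene accordingly held 38, 27, 98 and 127 tags in knockout libraries and 91, 65, 94 and 89 tags in wild-type libraries. At the Nlrp3 promoter peak (chr11:59541383-59541657, mm10) no knockout library exceeded 0.323 CPM, against 33.01 to 40.8 CPM in wild type. The labels do not say which bases were deleted. All 10 microglial marker genes had peaks, with summed levels of 2238 to 2490 CPM in knockout and 1982 to 2303 CPM in wild type. Neuronal markers summed to 67.3 to 114 CPM in knockout and 76.0 to 87.8 CPM in wild type, with 3 of 8 (Gad1, Gad2 and Stmn2) lacking any peak. Border macrophage and monocyte markers summed to 154 to 369 CPM in knockout and 192 to 309 CPM in wild type. Ly6c2 was the largest part, at 136 ± 102 CPM in knockout and 135 ± 52.2 CPM in wild type (SD, n = 4 each). Of 51 markers in 7 cell-type lists 35 held enough tags to be tested, none of the granulocyte and lymphocyte list among them, and 0 of the 35 were called by edgeR. At an unadjusted p under 0.05 by edgeR, 3 of the 10 microglial markers lay higher in knockout, with log2 fold changes of 0.26 (Csf1r), 0.24 (Tmem119) and 0.28 (Gpr34). The astrocyte marker Slc1a3 (0.33) and the neuronal marker Syt1 (0.62) did so too, and no tested marker lay lower at that limit. Other markers of the same lists had log2 fold changes below 0, among them Gfap (-0.32), Trem2 (-0.15), Rbfox3 (-0.12) and Snap25 (-0.10). Over all genes 5.96% had an unadjusted p under 0.05 by edgeR. Astrocyte markers summed to 375 to 531 CPM in knockout and 335 to 417 CPM in wild type. The part of the marker levels in the carriers' values was not tested. Tags on chromosome Y numbered 9, 2, 88 and 1 in knockout libraries and 9, 13, 201 and 255 in wild-type libraries, so libraries high in such tags were 1 of 4 in knockout and 2 of 4 in wild type. Of the X-linked carriers, Slc25a5, Slc25a14, Slc25a43 and Slc25a53, 0 were called, and the part of chromosome Y content in any value was not tested. In bulk libraries, fewer cells of a type and less signal per cell cannot be told apart.

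No carrier peak and no carrier gene passed the threshold between genotypes. With edgeR's quasi-likelihood test, adjusted over all features tested by the Benjamini-Hochberg method at 0.05, 0 of 151 tested carrier peaks were called, where 0.17% of all 58135 tested peaks were. Summed per gene, 0 of 46 tested carriers were called, where 0.213% of all 15476 genes were. At an unadjusted p under 0.05, 6 carrier peaks (3.97%) stood against 4.83% of all peaks, 4 of them higher and 2 lower in knockout. At the same limit, 4 carrier genes (8.70%) stood against 5.96% of all genes, with 2 higher and 2 lower in knockout. The DESeq2 test also called 0 carrier peaks and 0 carrier genes, with 5 of 174 peaks (against 2.19% of all peaks) and 3 of 47 genes (against 3.45% of all genes) at an unadjusted p under 0.05. The libraries of the genotypes did not overlap at 4 tested carrier peaks (2.65%, against 3.17% of all peaks), and they overlapped at all 46 tested genes (3.46% of all genes did not overlap). A setting without knockout replicates 1 and 2 called 1 carrier peak, in an intron of Slc25a28 and found only in the wild-type list. That setting called 0.378% of all peaks (246, against 99 with all libraries).

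The median differences were small. The intervals bound the change within 1.5-fold at most carrier genes but not at most carrier peaks. All fold changes are log2 ratios, knockout divided by wild type. The median over the 46 carrier genes was -0.03, against 0.00 over all genes, with a range of -0.41 to 0.78. For 34 of the 46 genes (73.9%, against 69.2% of all genes) the whole 95% interval lay within a 1.5-fold change in either direction. Single peaks were less certain, and the interval lay within 1.5-fold at 47 of 151 (31.1%, against 26.6% of all peaks). Of the tested carrier peaks, 61 were above 0 and 90 below, with a median of -0.06 against 0.00 over all peaks. At promoters 34 of 49 carrier peaks (69.4%) were below 0, against 62.5% of all tested promoter peaks. In introns 26 of 47 (55.3%, against 45.6%) and in intergenic sequence 26 of 43 (60.5%, against 45.6%) were below 0, and many of these peaks share a locus. The promoter medians were -0.10 for carriers and -0.06 for all promoters, and promoters drew 27.9%, 26.95%, 28.2% and 30.7% of tags in peaks in knockout libraries, against 27.4%, 29.8%, 32.7% and 31.4% in wild-type libraries. The part of that promoter share in the carriers' values was not tested.

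**Figure D1:**
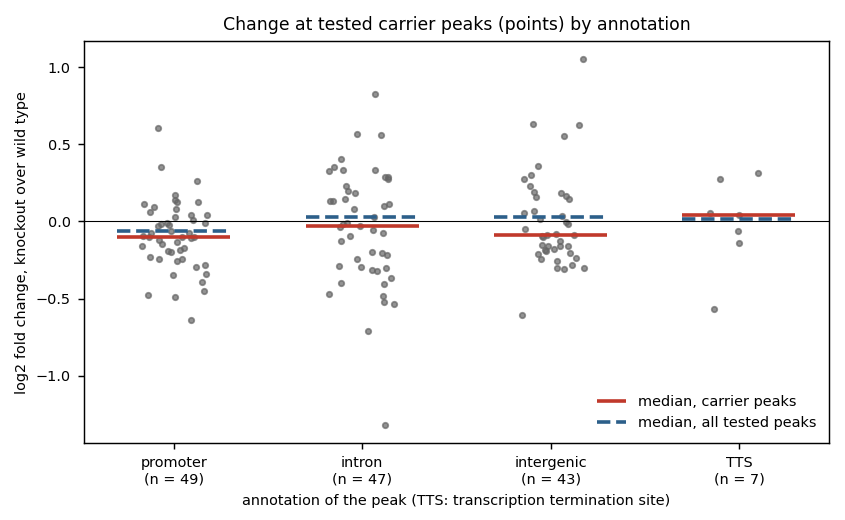
Log2 fold change of tested carrier peaks, knockout over wild type, at promoters, introns, intergenic sequence and transcription termination sites by HOMER annotation. Lines give the carrier median (solid) and the median of all tested peaks (dashed). The few tested peaks in exons and untranslated regions are not drawn. The promoter points centre at -0.10, against -0.06 for all promoters, and the lowest point is the intronic Slc25a28 peak at -1.32. That peak was found only in the wild-type list.

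More of the carriers' peaks lay at promoters and fewer in introns than over all peaks, described here without a test. Introns held 58 of the 174 peaks (33.3%, against 42.9% of all peaks), intergenic sequence 52 (29.9%, against 30.3%) and promoters 49 (28.2%, against 19.5% of all peaks). Promoter peaks took 43.8% of the carriers' wild-type tags, against 30.3% over all peaks. A promoter peak was present at 39 of 47 carriers (83.0%, against 66.5% of all genes). Peaks over 20 kb from the start made up 22.4% of the carriers' peaks, against 34.8% of all peaks. The median carrier had 3 peaks, as did the median gene, and 12 carriers had 1 peak. The most peaks were assigned to Slc25a33 (21), Ucp2 (12) and Slc25a51 (11). Assignment goes to the nearest start, and 23 carrier peaks lay in the body of another protein-coding gene, so that 8 of the peaks of Slc25a51 lay in Shb. The peak caller's lists contributed to the carriers as to all peaks. Of the 174 peaks, 15 were found only in the knockout list (8.62%, against 8.18%) and 28 only in the wild-type list (16.1%, against 16.3%). A peak found in only 1 list entered through the genotype where it was called, which favours a higher level there.

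**Figure D2:**
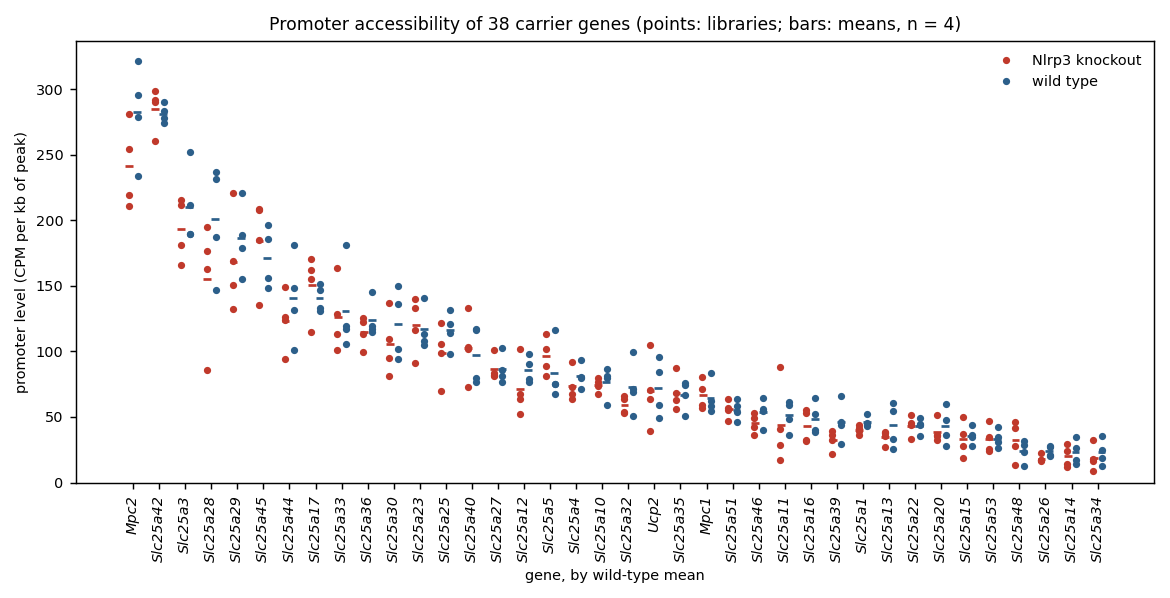
Promoter accessibility in CPM per kb of promoter peak for 38 of the 39 carriers with a promoter peak, knockout points left of wild-type points for each gene, ordered by wild-type mean, with bars for means of 4 libraries. The means of Mpc2 and Slc25a42 lie above the other means in both genotypes, although single Mpc2 points mix with those of other genes. Knockout and wild-type points overlap at most genes.

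Per length of promoter peak, the pyruvate carrier subunit Mpc2 and the coenzyme A carrier Slc25a42 were among the most accessible. The Mpc2 promoter level was 281, 219, 211 and 255 CPM per kb in knockout replicates 1 to 4, against 234, 296, 321 and 279 CPM per kb in wild-type replicates 1 to 4. The Slc25a42 promoter level was 290, 260, 299 and 292 CPM per kb in knockout, against 290, 283, 274 and 278 CPM per kb in wild type. Both genes overlapped between genotypes, and their wild-type means exceeded those of 98% of the 10696 genes with a promoter peak. The phosphate carrier Slc25a3 followed with promoter levels of 181, 216, 166 and 212 CPM per kb in knockout, against 189, 189, 252 and 211 CPM per kb in wild type. The step from Slc25a42 to Slc25a3 was the only one of 38 between neighbours in the wild-type order at which the libraries did not overlap, so the order of the other neighbours is within their spread. Altogether 24 of 39 carrier promoters lay above the median of all promoters (61.3 CPM per kb in wild type), and 6 lay in the lowest 25%. The least accessible were Slc25a34, with promoter levels of 8.66 to 32.3 CPM per kb in knockout and 12.5 to 35.6 CPM per kb in wild type, and Slc25a14, at 20.1 ± 8.24 CPM per kb in knockout and 23.2 ± 9.36 CPM per kb in wild type (SD, n = 4 each). A peak annotated as promoter was lacking at 8 carriers, among them mitoferrin-1 (Slc25a37), the oxodicarboxylate carrier Slc25a21 and the germ-cell ADP/ATP carrier Slc25a31. Slc25a38 and Slc25a24 also counted among these, although Slc25a38 had a peak at its start and Slc25a24 a peak 0.306 kb from it, under other annotations.

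**Figure D3:**
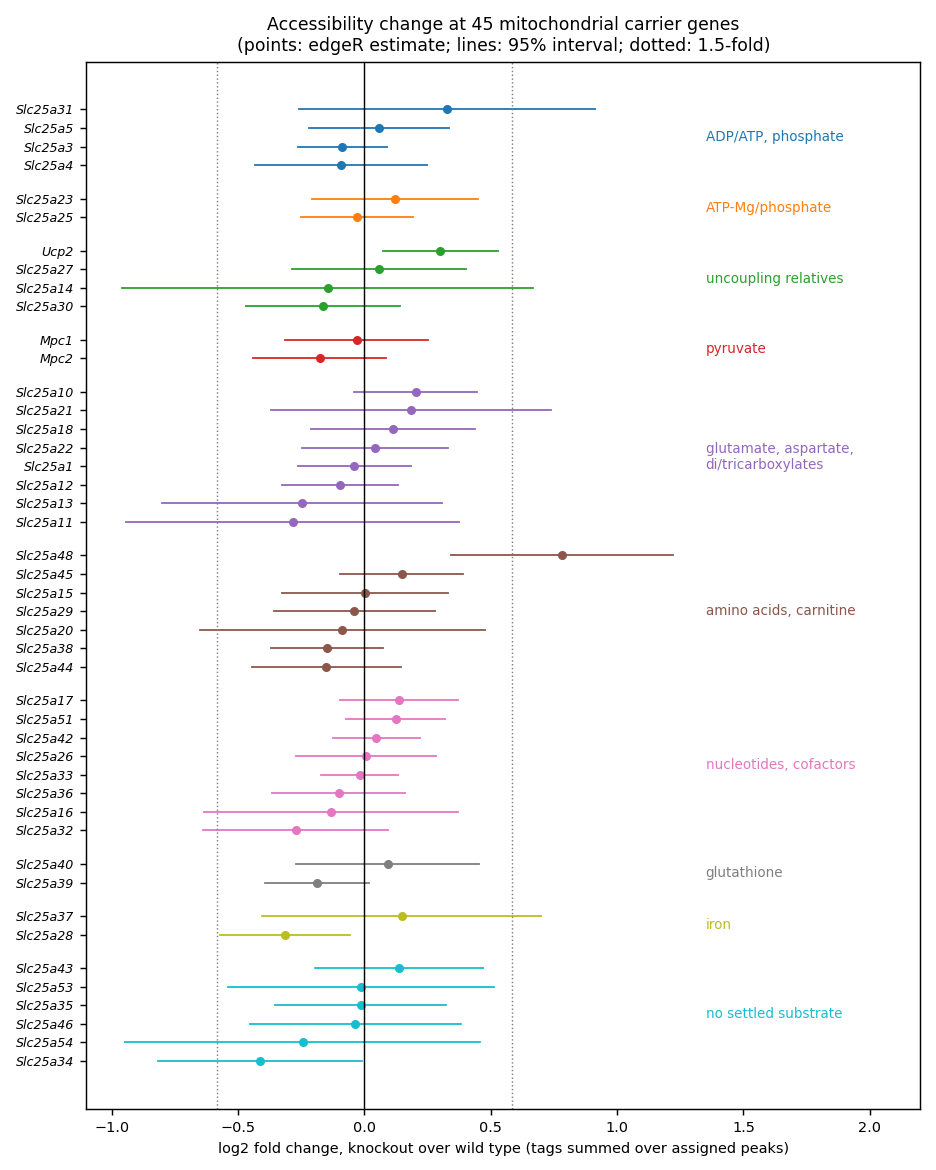
Log2 fold change, knockout over wild type, of tags summed per carrier gene for 45 of the 46 tested genes, grouped by substrate, with 95% intervals and dotted lines at a 1.5-fold change. Most intervals cross 0, and those of Slc25a48, Ucp2, Slc25a28 and Slc25a34 do not, though none of these passed the adjusted test.

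Among carriers of energy metabolites, Slc25a3, Slc25a4 and Slc25a5 supply ATP synthesis with phosphate and ADP. Slc25a3 summed to 119, 119, 113 and 114 CPM in knockout, against 122, 118, 126 and 124 CPM in wild type, which gave a log2 fold change of -0.09 (95% interval -0.26 to 0.09). The ADP/ATP carrier Slc25a4 had a log2 fold change of -0.09 (-0.43 to 0.25), and Slc25a5 had 0.06 (-0.22 to 0.33). An intergenic peak about 14.5 kb upstream of Slc25a3 (chr10:91138311-91138574, mm10) had 10.9, 11.8, 14.9 and 12.3 CPM in knockout, against 17.9, 23.2, 19.9 and 18.2 CPM in wild type. Every knockout library was below every wild-type library there. The log2 fold change was -0.61 (-1.05 to -0.16), with an adjusted p of 0.825 by edgeR. The calcium-regulated ATP-Mg/phosphate carriers Slc25a23 and Slc25a25 had log2 fold changes of 0.12 and -0.03, and Slc25a24 (2.89 to 5.90 CPM in knockout and 0.975 to 3.38 CPM in wild type) held too few tags to be tested.

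The pyruvate carrier did not pass the test at either subunit. Mpc1 summed to 60.2, 44.8, 46.1 and 51.3 CPM in knockout, against 46.8, 43.2, 61.7 and 52.6 CPM in wild type. Its log2 fold change was -0.03 (-0.31 to 0.25), and its sign depended on the setting. Mpc2 summed to 66.1, 57.9, 49.5 and 55.9 CPM in knockout, against 53.6, 71.6, 69.7 and 59.7 CPM in wild type. The Mpc2 log2 fold change was -0.18 (-0.44 to 0.09) with an adjusted p of 0.908 by edgeR. Genotypes overlapped at both genes. A called peak lay 0.036 Mb from the Mpc1 peaks (chr17:8228724-8228973, mm10), assigned to Ccr6, with means of 9.50 CPM in knockout and 28.5 CPM in wild type. The nearest Mpc1 peak itself, at chr17:8264684-8264968, had a log2 fold change of 0.27 (-0.39 to 0.94).

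Carriers of glutamate, aspartate and carboxylates, which lie closest to the study's question, likewise gave no call in 8 genes. The glutamate carrier Slc25a22 summed to 53.1, 68.0, 42.3 and 50.7 CPM in knockout, against 43.9, 49.3, 53.7 and 51.3 CPM in wild type. Its log2 fold change was 0.04 (-0.25 to 0.33), and knockout replicate 2 was its highest library. The other glutamate carrier, Slc25a18, summed to 46.03, 42.0, 41.0 and 34.6 CPM in knockout, against 44.4, 32.4, 29.3 and 39.3 CPM in wild type, with a log2 fold change of 0.11 (-0.21 to 0.44). All 3 peaks assigned to Slc25a18 lay in other genes, Cecr2 and Atp6v1e1, so its own promoter had no peak. The aspartate-glutamate carrier Slc25a12 summed to 69.6, 81.0, 92.7 and 85.9 CPM in knockout, against 83.4, 80.4, 88.3 and 107 CPM in wild type. Its log2 fold change was -0.10 (-0.33 to 0.13). Its paralog Slc25a13 had 14.2, 10.1, 13.1 and 13.9 CPM in knockout, against 20.5, 22.3, 9.04 and 11.9 CPM in wild type. That gave -0.25 (-0.80 to 0.31), and wild-type replicates 1 and 2 were the high libraries, without which singly it was -0.08 and -0.07. The oxoglutarate carrier Slc25a11 had 22.4, 4.34, 7.19 and 10.2 CPM in knockout, against 9.26, 14.9, 14.9 and 11.9 CPM in wild type. The knockout libraries of Slc25a11 enclosed the whole wild-type range, and its log2 fold change of -0.28 had the wide interval of -0.94 to 0.37. It was -0.62 without knockout replicate 1 and -0.08 without knockout replicate 3. The dicarboxylate carrier Slc25a10 summed to 74.4, 81.0, 74.9 and 64.6 CPM in knockout, against 72.6, 60.8, 61.7 and 55.3 CPM in wild type. Knockout replicate 4 fell within the wild-type range, and the log2 fold change was 0.20 (-0.04 to 0.45, adjusted p = 0.881 by edgeR). An intronic Slc25a10 peak found only in the knockout list (chr11:120494041-120494283) had 10.9, 14.8, 0.439 and 1.29 CPM in knockout, against 1.49, 4.22, 1.14 and 1.40 CPM in wild type. Its high libraries were knockout replicates 1 and 2, those with the smallest share of tags in peaks. That peak held too few tags to be tested. Slc25a10 lies in a stretch of chromosome 11 with 17 called peaks, but none of its 4 tested peaks was called, with an adjusted p of 1.00 by edgeR at each. The nearest called peak, intronic and assigned to P4hb, lay 0.06 Mb from the Slc25a10 peaks. Its means were 13.6 CPM in knockout and 3.85 CPM in wild type, a log2 fold change of 1.71.

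Ucp2, an uncoupling-protein relative abundant in macrophages and linked to export of carbon intermediates from the matrix, did not pass the test but lay higher in knockout in most libraries. Summed over its 12 peaks, Ucp2 had 264, 220, 241 and 274 CPM in knockout, against 257, 174, 164 and 219 CPM in wild type. Wild-type replicate 1 lay within the knockout range, and the other wild-type libraries lay below all knockout libraries. The log2 fold change was 0.30 (0.07 to 0.53), with an adjusted p of 0.633 by edgeR's quasi-likelihood test, and no setting run called it. Leaving out 1 library, it ran from 0.21 (without wild-type replicate 3, adjusted p = 1.00) to 0.43 (without wild-type replicate 1, adjusted p = 0.0846), and it was 0.16 with promoter peaks only. All 10 tested Ucp2 peaks had log2 fold changes above 0. These peaks share a locus and are not independent. The promoter peak had the smallest, 0.06 (-0.39 to 0.52). The strongest peak lay in an intron 2.52 kb downstream of the start (chr7:100495708-100496046, mm10) and had 83.3, 73.8, 104 and 104 CPM in knockout, against 101, 70.3, 71.7 and 86.2 CPM in wild type. Its libraries overlapped, at a log2 fold change of 0.18 (-0.11 to 0.47). An intronic peak beside the promoter (chr7:100493578-100493835) had 15.7, 10.3, 13.6 and 16.5 CPM in knockout, against 10.9, 11.2, 3.41 and 7.45 CPM in wild type. Only knockout replicate 2 fell within the wild-type range at this peak. The log2 fold change was 0.83 (0.23 to 1.42), with an adjusted p of 0.808 by edgeR, the lowest among carrier peaks. A peak past the gene's end (chr7:100500791-100501062) had 13.3, 17.7, 9.22 and 15.5 CPM in knockout, against 11.9, 7.73, 5.69 and 8.85 CPM in wild type, with a log2 fold change of 0.63 (0.05 to 1.20) and an adjusted p of 1.00 by edgeR. The last 3 peaks assigned to Ucp2 lay in the neighbouring gene Dnajb13. The neighbouring uncoupling protein gene Ucp3 averaged 223 ± 16.6 CPM in knockout and 217 ± 21.1 CPM in wild type (SD, n = 4 each), a log2 fold change of 0.03 (-0.14 to 0.21). The remaining uncoupling relatives Slc25a27, Slc25a14 and Slc25a30 had 0.06, -0.15 and -0.16.

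**Figure D4:**
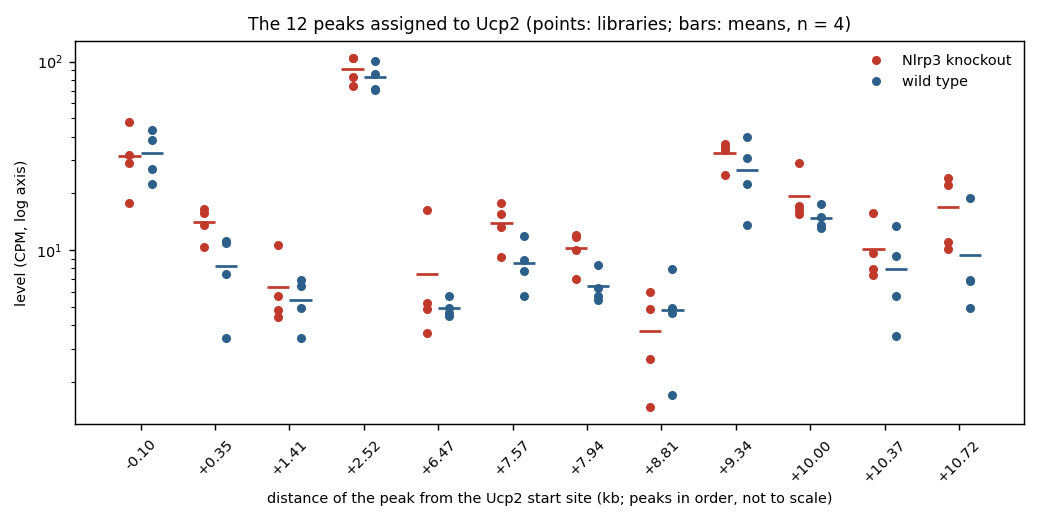
CPM per library (log axis) at the 12 peaks assigned to Ucp2, knockout points left of wild-type points, labelled by distance from the start site and with bars for means of 4 libraries. The intron peak at +2.52 kb is the strongest, and the promoter peak at -0.10 kb shows almost equal means while the peak at +0.35 kb is higher in 3 of 4 knockout libraries than in any wild-type library.

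Among carriers of amino acids and related molecules, Slc25a48 had the lowest adjusted p of all carrier genes. In human cells SLC25A48 has been linked to choline import into mitochondria. Slc25a48 summed to 18.9, 24.6, 27.5 and 23.5 CPM in knockout, against 15.1, 18.9, 10.6 and 12.4 CPM in wild type. Knockout replicate 1 lay just under wild-type replicate 2, and all other knockout libraries exceeded all wild-type libraries. The log2 fold change was 0.78 (0.34 to 1.22), with an adjusted p of 0.270 by edgeR. Its promoter peak had 6.03, 2.95, 10.1 and 9.06 CPM in knockout, against 6.96, 6.32, 2.85 and 5.12 CPM in wild type, a log2 fold change of 0.61 (-0.12 to 1.33). An intergenic peak about 19.8 kb upstream (chr13:56418464-56418740), found only in the knockout list, had 1.21, 13.3, 8.34 and 5.82 CPM in knockout, against 2.49, 6.32, 1.14 and 3.73 CPM in wild type. Genotypes overlapped widely at both peaks. The log2 fold change of the upstream peak was 1.05 (0.08 to 2.03), the highest among carrier peaks, with an adjusted p of 1.00 by edgeR. Being found only in the knockout list favours a higher knockout level at this peak, whose tags are part of the gene's sum. The other genes of this group stayed closer to 0, at 0.15 for Slc25a45, -0.15 for the glycine carrier Slc25a38 and the branched-chain amino acid carrier Slc25a44, 0.00 for the ornithine carrier Slc25a15, -0.04 for the basic amino acid carrier Slc25a29 and -0.09 for the carnitine-acylcarnitine carrier Slc25a20. A peak at the start of Slc25a38 (chr9:120110229-120110969) had 30.2, 29.5, 29.0 and 32.0 CPM in knockout, against 43.3, 33.03, 37.6 and 34.5 CPM in wild type. All knockout libraries lay below all wild-type libraries, at a log2 fold change of -0.29 (-0.63 to 0.05) and an adjusted p of 1.00 by edgeR.

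Iron enters mitochondria through the mitoferrins Slc25a37 and Slc25a28. Slc25a28 summed to 79.1, 50.6, 67.3 and 67.1 CPM in knockout, against 66.8, 80.4, 93.1 and 91.1 CPM in wild type. Wild-type replicate 1 and knockout replicate 1 brought the genotypes into overlap. The log2 fold change was -0.31 (-0.57 to -0.06), with an adjusted p of 0.699 by edgeR. Its promoter peak had 44.6, 23.6, 48.3 and 53.4 CPM in knockout, against 40.3, 51.3, 64.9 and 63.4 CPM in wild type, a log2 fold change of -0.28 (-0.66 to 0.09). An intronic peak 4.14 kb into the gene (chr19:43670630-43670859), found only in the wild-type list, held 5, 6, 3 and 4 tags in knockout, against 10, 12, 15 and 15 tags in wild type. Scaled, these were 6.03, 8.86, 1.32 and 1.29 CPM in knockout, against 4.97, 8.43, 8.54 and 6.99 CPM in wild type. Knockout replicates 3 and 4 lay below every wild-type library, and knockout replicates 1 and 2, with 6.68% and 4.96% of tags in peaks, lay among or above the wild-type libraries. With all libraries the log2 fold change was -1.32 (-2.32 to -0.32) with an adjusted p of 0.855 by edgeR, and without knockout replicates 1 and 2 it was -2.39 with an adjusted p of 0.0213. Leaving out knockout replicate 4 alone it was -0.83 (adjusted p = 0.869), and leaving out knockout replicate 3 alone -0.94. The part of the share of tags in peaks in that difference was not tested. Being found only in the wild-type list favours a lower knockout level at this peak, and the adjusted p takes no account of that. Slc25a37 had 2 peaks, both over 40 kb from its start, and a log2 fold change of 0.15 (-0.41 to 0.70).

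**Figure D5:**
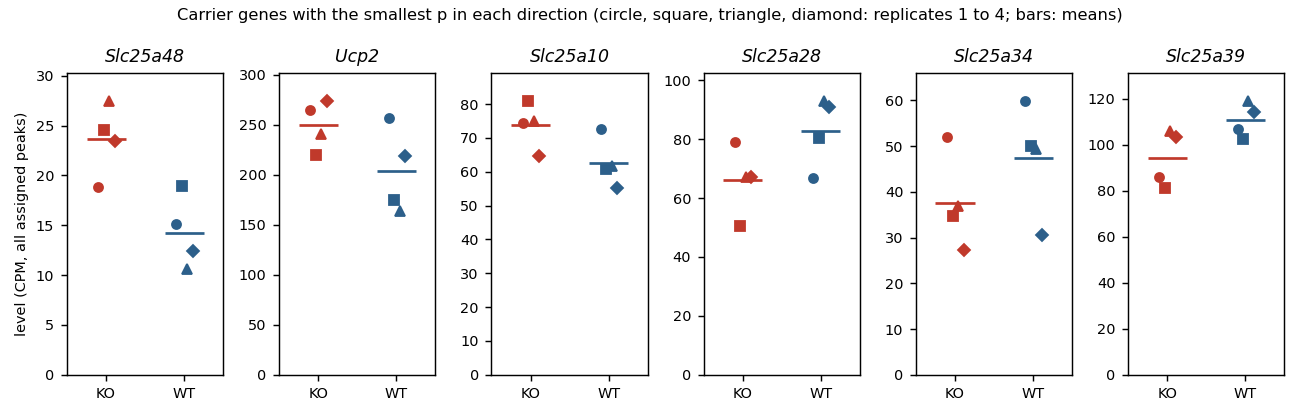
Summed CPM per library for the 3 carrier genes with the smallest p in each direction, knockout left of wild type, with marker shapes for replicates 1 to 4 and bars for means. Slc25a48, Ucp2 and Slc25a10 have higher knockout means and Slc25a28, Slc25a34 and Slc25a39 lower ones, and the libraries of both genotypes overlap in every panel.

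Nucleotide and cofactor carriers formed the largest group, with 9 genes and 57 peaks, and their log2 fold changes ran from -0.27 (the folate carrier Slc25a32) to 0.14 (the peroxisomal carrier Slc25a17). The pyrimidine nucleotide carrier Slc25a33, with 21 peaks, summed to 319, 305, 311 and 334 CPM in knockout, against 348, 322, 321 and 298 CPM in wild type. Its genotypes overlapped, and its log2 fold change of -0.02 had the narrowest bounds of the genes described, -0.17 to 0.14. Of these 21 peaks, 18 lay outside Slc25a33 and 11 lay over 20 kb from its start. The sum thus mostly describes chromatin around the gene. With promoter peaks only, Slc25a33 was at 0.13 (standard error 0.16). Slc25a42 summed to 150, 135, 152 and 147 CPM in knockout, against 150, 144, 135 and 139 CPM in wild type, at 0.05 (-0.12 to 0.22). One of its promoter peaks (chr8:70212681-70212939) had 86.9, 84.1, 81.7 and 83.8 CPM in knockout, against 80.0, 75.9, 77.4 and 76.4 CPM in wild type. The genotypes did not overlap there although the log2 fold change was only 0.12 (-0.13 to 0.36). A second peak without overlap, intergenic and about 99.7 kb from Slc25a26, the S-adenosylmethionine carrier, had 9.65, 7.38, 6.15 and 5.82 CPM in knockout, against 4.97, 1.41, 4.55 and 5.59 CPM in wild type. The NAD carrier Slc25a51 had a log2 fold change of 0.12 (-0.07 to 0.32).

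The glutathione carriers Slc25a39 and Slc25a40 differed in sign without passing the test. Slc25a39 summed to 86.2, 81.0, 106 and 103 CPM in knockout, against 107, 103, 119 and 114 CPM in wild type. Its libraries overlapped narrowly, at a log2 fold change of -0.19 (-0.40 to 0.02, adjusted p = 0.866 by edgeR). Slc25a40 had a log2 fold change of 0.09 (-0.27 to 0.46). Of the 6 genes whose substrate is not settled, Slc25a34 was the lowest, with 51.9, 34.7, 36.8 and 27.2 CPM in knockout, against 60.0, 50.004, 49.5 and 30.5 CPM in wild type. Replicate 4 was the lowest library of each genotype for Slc25a34, and the log2 fold change was -0.41 (-0.82 to -0.01, adjusted p = 0.808 by edgeR). Slc25a34 was at -0.22 without knockout replicate 4 and -0.27 without wild-type replicate 1. The other 5 ran from -0.24 (Slc25a54) to 0.14 (Slc25a43).

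Other mitochondrial transport genes gave no call either. The lists held 21 tested mitochondrial transporter genes outside the naming rule, with the uncoupling proteins Ucp1 and Ucp3 and with Mtch1 and Mtch2 among them. They also held 15 tested genes of the import route that inserts carriers into the membrane, and 4 outer membrane channels. In these lists 0 genes were called by edgeR and 0 had an unadjusted p under 0.05. Their median log2 fold changes were 0.03, -0.04 and -0.03, beside -0.03 for the carriers.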

How the data were processed

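Accessibility was measured by ATAC-seq in 8 libraries, 4 per genotype, grouped by the genotype label. Bowtie2, HOMER and DESeq2, with the mm10 build, are listed in the submitters' processing notes. The authors pooled the peak lists of both genotypes and counted tags over them with HOMER, at most 3 per position, per the file headers, so the deposited values are whole counts per peak and library. How duplicates, mitochondrial reads and the transposase offset were handled is not given in the sources used here. A normalized table from the authors was not used.

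Counts per peak, and counts summed per assigned gene, were tested with edgeR 4.0.16 in R 4.3.3 (TMM scaling, filterByExpr with a minimum count of 10, quasi-likelihood F test, genotype as the only term, Benjamini-Hochberg adjustment over all features tested). Levels are counts scaled to the TMM-adjusted total of tags in peaks (CPM), and CPM per kb divides by peak length. Intervals are 95% intervals of the log2 fold change, derived from the F statistic of the fit. They reflect the spread between libraries but are not the range of single libraries. The fit was tested on simulated data. The median carrier gene held 27 to 127 tags per library and the median carrier peak 8 to 33, so single peaks are imprecise. Alternatives were DESeq2 1.42.0, other scalings, no filter, robust moderation, a replicate block, the share of tags in peaks as a covariate, promoter peaks only and leaving out libraries. Genes and peaks with every library printed were the 3 of lowest p on either side, the 5 highest promoters, and the glutamate, pyruvate and Ucp2 genes. The members and lists were chosen with earlier results of these data known. Sequences came from RefSeq tables on GRCm38. Results of 1 carrier gene are not reported here, though it is included in the counts over all carriers.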

Additional observations from a re-analysis of the deposited data

How the results depend on the processing

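Over 22 carrier results and 17 alternative settings, 357 of 367 comparisons kept their direction and side of the threshold. The signs of 3 near-zero carriers turned. Mpc1 was at 0.0487 with scaling to all tags, 0.10 with promoter peaks only, 0.0199 without knockout replicate 3 and 0.069 without wild-type replicate 3 (-0.0926 to 0.069 leaving out 1 library). Slc25a12 was at 0.0214 with scaling to all tags and -0.167 to 0.0025 leaving out 1 library (above 0 without wild-type replicate 4). Slc25a22 was at -0.0816 without knockout replicates 1 and 2, -0.0443 without knockout replicate 2 and -0.023 without wild-type replicate 1. The cause was not tested. Carrier genes called stayed at 0 in all settings run. Carrier peaks called stayed at 0 except without knockout replicates 1 and 2, where 1 was called (Slc25a28, -2.39, adjusted p = 0.0213 by edgeR). That peak was found only in the wild-type list, which favours a lower knockout level. Of all peaks, 99 were called, against 19 with scaling to all tags, 158 with the covariate, 246 without knockout replicates 1 and 2, and 65 (without knockout replicate 3) to 123 leaving out 1 library. Of all genes, 33 were called, against 5 with scaling to all tags, 70 without knockout replicates 1 and 2, 8 with promoter peaks only, and 20 (without knockout replicate 3) to 42 leaving out 1 library (21 without wild-type replicate 3). Scaling to all tags moved the medians over carriers to 0.0599 for peaks and 0.0652 for genes, as it moved those over all features to 0.10 and 0.09, and split the calls 9 higher to 10 lower, against 32 to 67. Leaving out 1 library, the carrier medians ran from -0.0778 to -0.00883 (without knockout replicate 3) for peaks and -0.0509 to 0.0221 for genes. Same-numbered libraries deviated together with correlations of -0.01, 0.10, -0.01 and 0.15 over peaks and 0.01, 0.09, -0.02 and 0.19 over genes. The labels do not say whether same-numbered libraries were handled together. With few tags per peak, such correlations cannot decide it. With a replicate block 140 peaks and 38 genes were called, with 0 carriers. The low share of tags in peaks of knockout replicates 1 and 2 limits all estimates for single peaks.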
